A study of Mus musculus with 9 samples.

Results

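The matrix metalloproteinases (MMPs), the ADAMTS proteases with their ADAMTS-like relatives, and the tissue inhibitors of metalloproteinases (TIMPs) were followed in mouse brain tumour tissue. Members were taken by gene symbol: Mmp followed by a number, any symbol that starts with Adamts, and Timp1 to Timp4. These patterns matched 49 of the 18639 gene entries, namely 21 Mmp genes, 19 Adamts genes, 5 Adamtsl genes and 4 Timp genes. Of these, 35 reached 1 TPM, a length-corrected share of a library's transcripts, in at least 3 libraries and were tested: 16 Mmp, 11 Adamts, 4 Adamtsl and all 4 Timp genes.

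The tissue came from tumours of CT2A, a mouse glioma line, and was taken on day 5 after the tumour had been resected. Each of 3 groups held 3 libraries: sECM only, GFP-TC (control cells) and ThTC (cells that secrete the cytokines IFNβ and GM-CSF). The labels used here do not give the age or strain of the mice, whether each library came from its own animal, or what sECM and TC stand for. P-values therefore measure the spread between these libraries, which may be technical in part. CT2A is a single line, the tumour had been cut out before treatment in every group, and transcripts of tumour, delivered cells and host could not be told apart.

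MMPs are zinc proteases that are made as inactive proforms and, once activated, cut collagens, proteoglycans and other proteins around cells, and some are anchored in the cell membrane. ADAMTS proteases are secreted, carry thrombospondin repeats and include the enzymes that cut brain proteoglycans, trim procollagens and cut von Willebrand factor, while ADAMTS-like proteins share the repeats and lack the protease domain. TIMPs bind the active site of MMPs and inhibit them. The matrix of the brain is poor in fibrous collagen and rich in hyaluronan with bound proteoglycans, and both MMPs and ADAMTS enzymes have long been studied in the spread of glioma cells through it.

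The labels named the cells as murine glioma, but transcripts of other cells were present in all 9 libraries. The summed TPM of 15 neuron markers ran from 342 in GFP-TC 1 to 3462 in ThTC 3, with GFP-TC 3 at 2921 and the other 7 libraries at 1077 or below. The sum of 11 monocyte and macrophage markers ran from 659 in GFP-TC 1 to 2516 in ThTC 2, and that of 9 fibroblast markers from 1011 in ThTC 3 to 1989 in GFP-TC 2. Single genes weighed heavily in these sums. Lyz2 gave 1500 TPM of the first in ThTC 2, and Col3a1 gave 875 and 1654 TPM of the second in ThTC 3 and GFP-TC 2. Of 11 neutrophil markers, whose sum ran from 9.71 to 40.1 TPM, Ly6g, Mpo and Elane stood at 0 in most libraries and never above 0.14 TPM. Csf3r ran from 5.22 to 27.75 TPM, S100a9 reached 3.1 TPM, and Retnlg was at 8.28 to 23.5 TPM in sECM only and at 1.53 TPM or below in the other groups. Since TPM keeps no read depth, the depth of each library is unknown, and a lower TPM may reflect fewer cells of a type or less RNA per cell, which bulk tissue cannot tell apart.

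TPM corrects for gene length, so levels can be ranked across genes. Timp2 had the highest mean TPM of the 49 genes and made up 22.7% of their summed mean, followed by Mmp14 (18.7%), Timp1 (10.6%) and Timp3 (10.1%). These 4 genes together held 62.1%. The next were Mmp2 (4.56%), Mmp11 (4.18%), Adamts14 (3.98%), Adamts4 (3.59%) and Adamts7 (2.42%). Mmp14, the membrane-anchored collagenase that activates the proform of MMP2 with the help of TIMP2, supplied between 43.2% (ThTC 3) and 53.5% (ThTC 1) of all Mmp TPM. The summed Timp TPM divided by the summed Mmp TPM ran from 0.976 in sECM only 3 to 1.39 in ThTC 2, and it lay between 1.135 and 1.283 in the other libraries.

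**Figure D1:**
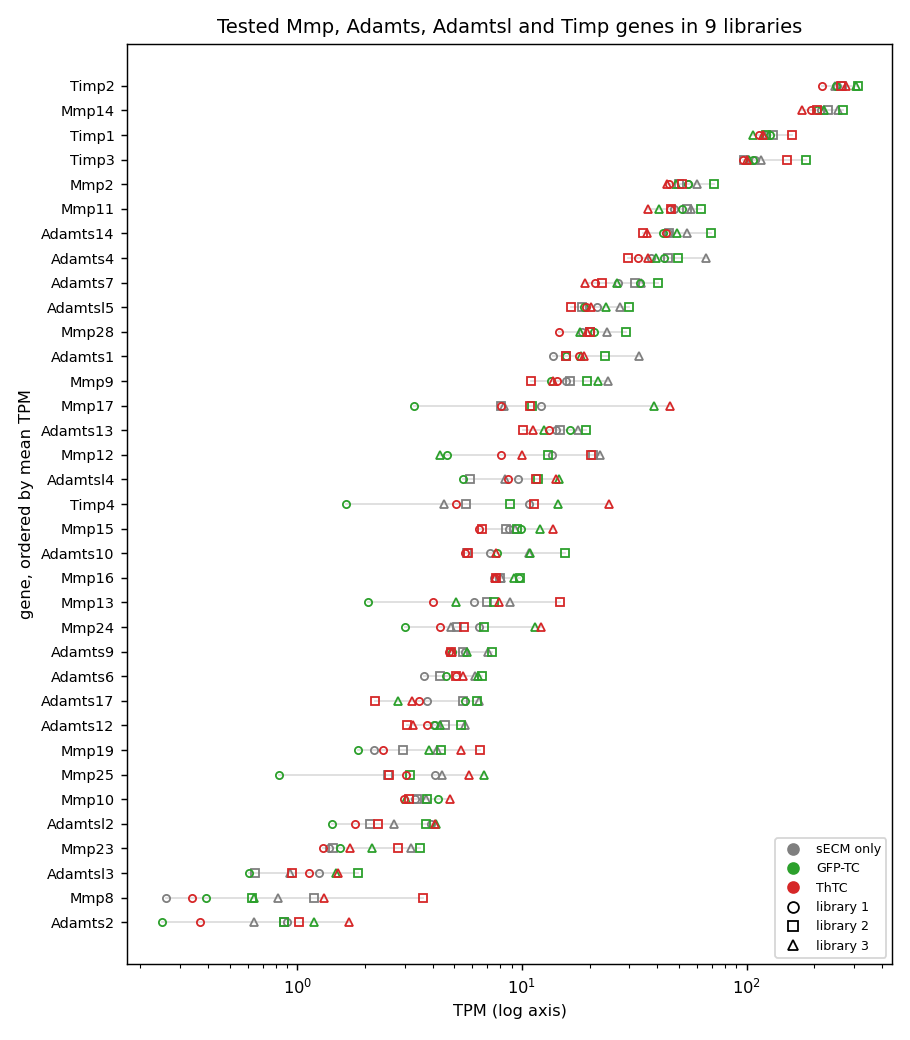
TPM (log axis) of each of the 35 tested genes, ordered by mean, with 1 symbol per library, colour for group and shape for library number. Timp2, Mmp14, Timp1 and Timp3 lie at 96.3 TPM or above in every library, while Timp4, Mmp8, Mmp17, Mmp25 and Mmp13 have the widest spread between libraries.

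The 14 genes under the filter were listed at low levels throughout. Mmp1a, Mmp21 and Adamts19 were at 0 in 7 of 9 libraries, and Adamts16, Adamts18, Mmp1b and Mmp27 never exceeded 0.57 TPM. The stromelysin Mmp3 ran from 0.38 to 1.21 TPM and the proteoglycan-cutting enzyme Adamts5 from 0.30 to 0.87 TPM. Adamts8 reached 2.07, Adamts20 1.47, Adamtsl1 1.47 and Adamts3 0.85 TPM, each in GFP-TC 3, and Adamts15 reached 0.85 TPM in ThTC 3. These 5 genes had their top values in the 2 libraries with the highest neuron marker sums.

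A block of 8 Mmp genes lies side by side on chromosome 9 (GRCm38.p6, chr9:7272514-7581885), in the order Mmp13, Mmp12, Mmp1b, Mmp3, Mmp1a, Mmp10, Mmp8 and Mmp27. It holds collagenases, stromelysins and the macrophage elastase, and 4 of the 8 (Mmp13, Mmp12, Mmp10 and Mmp8) passed the filter. Mmp13 and Mmp12 varied more between libraries than most members, so their upstream sequence is shown with that of 3 neighbours, and those of Mmp14, Mmp24 and Timp4 are given for contrast. The sequences come from the RefSeq promoter table of GRCm38.p6, read 5′ to 3′ on the gene's strand up to the base before the transcription start, and the table held 34 of the 49 members (36 starts). Capitals mark the motifs searched for on both strands: AP-1 (TGANTCA), an interferon-stimulated response element (ISRE, GAAANNGAAA), the GC box (GGGCGG) and TATAAA. In the stretches shown no match overlapped another. Where a gene had several starts, one with AP-1 letters was shown if there was any, as for Mmp12.
Mmp13, chr9:7272264-7272513, plus strand: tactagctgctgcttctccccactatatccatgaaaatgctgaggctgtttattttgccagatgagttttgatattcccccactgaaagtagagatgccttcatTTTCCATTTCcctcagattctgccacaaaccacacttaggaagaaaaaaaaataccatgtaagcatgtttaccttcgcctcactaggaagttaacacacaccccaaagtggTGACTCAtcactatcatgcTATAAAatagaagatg
Mmp12, chr9:7347254-7347373, plus strand, the later of its starts in the table: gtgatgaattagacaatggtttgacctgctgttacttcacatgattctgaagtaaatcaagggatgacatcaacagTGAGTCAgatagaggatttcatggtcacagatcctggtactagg
Mmp3, chr9:7445702-7445821, plus strand: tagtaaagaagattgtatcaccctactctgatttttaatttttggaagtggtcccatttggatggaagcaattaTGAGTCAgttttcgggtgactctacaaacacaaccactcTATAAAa
Mmp1a, chr9:7464021-7464140, plus strand: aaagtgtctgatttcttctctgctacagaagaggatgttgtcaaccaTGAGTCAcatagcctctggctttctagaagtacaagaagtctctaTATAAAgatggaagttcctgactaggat
Mmp10, chr9:7502222-7502341, plus strand: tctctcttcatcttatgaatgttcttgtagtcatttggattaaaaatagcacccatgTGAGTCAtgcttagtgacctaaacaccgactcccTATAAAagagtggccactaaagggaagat
Mmp14, chr14:54431478-54431597, plus strand: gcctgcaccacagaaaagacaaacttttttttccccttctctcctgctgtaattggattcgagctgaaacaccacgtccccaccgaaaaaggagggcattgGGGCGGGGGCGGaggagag
Mmp24, chr2:155775222-155775341, plus strand: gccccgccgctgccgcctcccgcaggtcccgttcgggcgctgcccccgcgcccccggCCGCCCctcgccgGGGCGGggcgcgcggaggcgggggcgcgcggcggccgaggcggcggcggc
Timp4, chr6:115252206-115252325, minus strand: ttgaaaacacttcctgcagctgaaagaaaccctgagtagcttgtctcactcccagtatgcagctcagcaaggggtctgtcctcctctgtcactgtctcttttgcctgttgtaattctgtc

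The AP-1 letters, the site known for binding Jun and Fos, were found within 250 bases upstream in 6 members, Mmp13, Mmp12, Mmp3, Mmp10, Mmp1a and Mmp1b, all of them in the chromosome 9 block. Counted from the transcription start, the motif began 35 bases before it in Mmp13, 44 in Mmp12, 46 in Mmp3, 63 in Mmp10, 73 in Mmp1a and 93 in Mmp1b. In Mmp12 the match was at the later start alone, at chr9:7347374, inside a gene that begins at chr9:7344397. Of all 32851 promoters in the table, 6.7% held these letters. The ISRE letters stood in 3.0% of all promoters and in Mmp13 alone among the members, beginning 146 bases before its start. A motif of STAT factors (TTCNNNGAA) stood in 7.0% of all promoters and, of the members, in Mmp23. The GC box, present in 32.7% of all promoters, was found in 20 members, among them Mmp14, Mmp24, Timp1, Timp2 and Timp3, and TATAAA, present in 12.4%, in 8. The Timp4 stretch shown held none of these motifs, and these matches describe letters only.

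Within the block, the genes with AP-1 letters differed widely in level: Mmp12 and Mmp13 averaged 13.0 and 7.01 TPM over the 9 libraries, Mmp10 3.60, Mmp3 0.733, Mmp1b 0.0533 and Mmp1a 0.0267. Mmp12, the macrophage elastase, stood at 13.6, 20.7 and 22.2 TPM in sECM only, at 4.65, 13.1 and 4.31 in GFP-TC and at 8.05, 20.2 and 9.99 in ThTC. All 3 GFP-TC libraries lay below all 3 sECM only libraries, and library 2 was the highest of its group in both GFP-TC and ThTC. Mmp13, which cuts fibrillar collagen, stood at 6.13, 6.98 and 8.84 TPM in sECM only, at 2.06, 7.47 and 5.06 in GFP-TC and at 4, 14.7 and 7.87 in ThTC. ThTC 2 was highest and GFP-TC 1 lowest, and the 3 groups overlapped. Mmp8, the collagenase known from neutrophils, was at 3.62 TPM in ThTC 2 and between 0.26 and 1.32 TPM elsewhere. Mmp10, a stromelysin, was steady, between 2.98 and 4.77 TPM.

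Across the 9 libraries, log2(TPM + 1) of Mmp13 went with that of Mmp19 (Pearson r = 0.84), Mmp12 (r = 0.78) and Mmp8 (r = 0.78), as a description of points that share a library. ThTC 2, which was the highest library for Mmp13, Mmp8, Mmp19 and Timp1, also had the highest macrophage marker sum (2516). Lyz2 alone gave 1500 TPM of that sum. Of the listed markers, only Lyz2, Cd68 and Ms4a7 were highest in ThTC 2. Csf1r, Itgam and Adgre1 were highest in ThTC 3, and Mrc1 was at 2.98 TPM in ThTC 2. With equal weight to each marker, the mean centred log2 level was 0.45 in ThTC 2, the highest library, beside 0.40 in ThTC 3. The part of the monocyte and macrophage content in the Mmp and Timp1 values was not tested.

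GFP-TC served as the control for ThTC, so their contrast bears on IFNβ and GM-CSF secretion. Adamts genes were lower in ThTC than in GFP-TC in 10 of 11 cases, with a median log2 fold change of -0.40, beside 66.2% of all genes tested that were lower, while Mmp genes were split, 9 of 16 lower, and Timp genes had a median of -0.02, which became 0.12 after median-of-ratios scaling, which sets the middle of the common genes equal between libraries. The lowest p-values belonged to Adamts7, Mmp16, Adamts10, Adamts14 and Adamts13. No member passed the adjusted threshold of 0.05 in limma. Nor did any of the 13829 genes tested (0%), so these are differences in level and not calls.

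Adamts7 (chr9:90162904-90200102), which cuts cartilage oligomeric matrix protein (COMP), stood at 26.8, 31.8 and 33.7 TPM in sECM only, at 33.7, 40.5 and 26.4 in GFP-TC and at 21.1, 22.65 and 19.1 in ThTC. Every ThTC library lay below every other library, but after median-of-ratios scaling ThTC 2 (24.6) was above GFP-TC 3 (23.7). The means were 21.0 ± 1.79 TPM in ThTC and 33.5 ± 7.03 TPM in GFP-TC (SD, n = 3 each), a log2 fold change of -0.64 (SE 0.16, limma adjusted p = 0.32). Adamts12, its closest relative in substrate, gave 4.57 ± 0.679 TPM in GFP-TC and 3.37 ± 0.349 TPM in ThTC, again without overlap (log2 fold change -0.35, limma adjusted p = 0.37).

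Among the proteoglycan-cutting enzymes, Adamts4 (chr1:171250129-171262267), an aggrecanase that also cuts brevican and versican, stood at 37.65, 44.6 and 65.85 TPM in sECM only, at 42.9, 49.5 and 39.65 in GFP-TC and at 32.8, 29.8 and 36.4 in ThTC. The ThTC values were below those of both other groups without overlap. Their log2 fold change against GFP-TC was -0.40 (SE 0.19, limma adjusted p = 0.36). Adamts9 stood between 4.71 and 4.86 TPM in ThTC and between 4.89 and 7.32 TPM in GFP-TC, so that ThTC 3 and GFP-TC 1 were almost level. Adamts1, an enzyme first known from inflamed tissue, averaged 17.5 ± 1.60 TPM in ThTC and 19.2 ± 3.89 TPM in GFP-TC (SD, n = 3 each) and overlapped, and its highest value, 33.4 TPM, was in sECM only 3.

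Adamts14 (chr10:61197112-61273419), which removes the amino-terminal propeptide of procollagen, stood at 44.9, 45.1 and 54.05 TPM in sECM only, at 42.6, 69.5 and 49.1 in GFP-TC and at 43.8, 34.75 and 36.1 in ThTC. ThTC 1 lay above GFP-TC 1, so the groups overlapped, and GFP-TC 2 stood far above the rest. The log2 fold change of -0.46 (SE 0.18, limma adjusted p = 0.32) moved to -0.26 without GFP-TC 2. Its relative Adamts2 was the only tested Adamts gene with a higher ThTC mean, at 1.03 ± 0.665 against 0.767 ± 0.474 TPM. It reached 1 TPM only in GFP-TC 3 (1.18), ThTC 2 (1.02) and ThTC 3 (1.70), so it passed the filter mainly through ThTC.

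Adamts13, the protease of von Willebrand factor, was at 16.4, 19.3 and 12.6 TPM in GFP-TC and at 13.2, 10.1 and 11.2 TPM in ThTC, overlapping by 1 library (log2 fold change -0.44, limma adjusted p = 0.32). Adamts10, known for its link with fibrillin, was at 7.77, 15.6 and 10.8 TPM in GFP-TC and at 5.59, 5.73 and 7.67 TPM in ThTC, with no overlap (log2 fold change -0.72, SE 0.28, limma adjusted p = 0.32). Adamts17 averaged 4.88 ± 1.84 TPM in GFP-TC and 2.99 ± 0.675 in ThTC, and Adamts6 5.88 ± 1.11 against 5.23 ± 0.219 (SD, n = 3 each), both with overlap. Of the ADAMTS-like genes, Adamtsl5 was at 24.2 ± 5.59 TPM in GFP-TC and 18.7 ± 1.95 in ThTC, and Adamtsl2, Adamtsl3 and Adamtsl4 differed by less than 0.17 on the log2 scale.

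The summed TPM of the 19 Adamts genes stood at 165, 180 and 243 in sECM only, at 180, 247 and 183 in GFP-TC and at 153, 137 and 153 in ThTC. All 3 ThTC libraries lay below the other 6. After median-of-ratios scaling, the sums in ThTC were 163.8, 148.9 and 146.7 and the nearest other library, GFP-TC 3, was at 164.3, so the order held by a narrow margin. The summed Mmp TPM, between 363 and 527, and the summed Timp TPM, between 433 and 629, overlapped between the groups.

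Of the membrane-type enzymes, Mmp14 (chr14:54431598-54442456) stood at 215, 229.9 and 255 TPM in sECM only, at 206, 269.9 and 222 in GFP-TC and at 195, 206 and 176 in ThTC. Its ThTC values lay below all other libraries, although ThTC 2 (205.77 TPM) and GFP-TC 1 (206.27 TPM) differed by under 1 TPM. The means were 192 ± 15.1 and 233 ± 33.1 TPM (SD, n = 3 each), a log2 fold change of -0.27 (SE 0.12, limma adjusted p = 0.33), which moved to -0.16 without GFP-TC 2 and to -0.14 after median-of-ratios scaling. Mmp16, a further transmembrane member, was tight within groups before scaling, at 9.71, 9.83 and 9.25 TPM in GFP-TC and 7.61, 7.65 and 7.55 TPM in ThTC. In sECM only it stood at 7.5 to 8.09 TPM. The log2 fold change of ThTC against GFP-TC was -0.30 (SE 0.12, limma adjusted p = 0.32). It moved to -0.18 after median-of-ratios scaling, with GFP-TC at 8.303 to 10.2 TPM and ThTC at 7.235 to 8.302 TPM. Mmp15 overlapped, at 6.43 to 13.7 TPM in ThTC and 9.46 to 12.1 TPM in GFP-TC.

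The gelatinases, which cut basement membrane collagen and denatured collagen, had lower ThTC means with overlap. Mmp2 was at 58.4 ± 12.2 TPM in GFP-TC and 47.0 ± 4.09 TPM in ThTC, and Mmp9 at 18.3 ± 4.28 and 13.0 ± 1.80 TPM (SD, n = 3 each). Mmp11, a stromelysin often found in tumour stroma, was at 51.6 ± 10.9 and 42.7 ± 5.401 TPM, and Mmp28 at 22.7 ± 5.61 and 18.1 ± 2.96 TPM. Mmp23 was at 2.40 ± 1.01 and 1.94 ± 0.774 TPM. The secreted enzymes with higher ThTC means were Mmp12 (log2 fold change 0.77, SE 0.44), Mmp13 (0.72, SE 0.47), Mmp8 (0.65, SE 0.43) and Mmp19 (0.38, SE 0.37), with limma adjusted p from 0.41 to 0.65. ThTC 2 held the highest value of each among the 6 libraries, and without it the log2 fold change was 0.41 for Mmp12 and 0.30 for Mmp13. Mmp8 reached 1 TPM only in sECM only 2 (1.18), ThTC 2 (3.62) and ThTC 3 (1.32). It thus passed the filter mainly through ThTC and was not tested without ThTC 2. Between libraries of the same number, Mmp12, Mmp13 and Mmp19 were higher in ThTC in all 3 pairs. Over all tested genes, however, those numbered 2 deviated together only weakly (correlation 0.124). With the replicate number as a block the SE was 0.18 for both Mmp12 (limma adjusted p = 0.13) and Mmp13 (adjusted p = 0.16) and 0.19 for Mmp19 (adjusted p = 0.32). Of the 35 tested members, 5 were higher in ThTC in all 3 pairs (14.3%, beside 12% of all genes), the others being Timp4 and Adamts2, and 13 were lower in all 3 (37.1%, beside 32.6%).

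All 4 inhibitors overlapped between ThTC and GFP-TC. Timp1, the inducible inhibitor, stood at 122, 131 and 119.8 TPM in sECM only, at 127, 122 and 107 in GFP-TC and at 114, 159 and 119 in ThTC, with ThTC 2 highest and the groups overlapping. Timp2 stood at 254, 265 and 247 TPM in sECM only, at 250.6, 313 and 308 in GFP-TC and at 217, 262 and 277 in ThTC. Timp3, which stays bound to the matrix, was between 96.3 and 116 TPM in 7 libraries, at 185 in GFP-TC 2 and at 151 in ThTC 2. The log2 fold changes were 0.12 (SE 0.13) for Timp1, -0.20 (SE 0.12) for Timp2 and -0.16 (SE 0.24) for Timp3, and the limma adjusted p was between 0.42 and 0.81. The direction for Timp1 turned to -0.03 without ThTC 2 and that for Timp3 to 0.11 without GFP-TC 2, while the value for Timp2 moved to -0.10 without ThTC 1. Timp4 had the largest difference of the 4, at 0.74 (SE 0.71, limma adjusted p = 0.64), higher in ThTC in all 3 same-numbered pairs (SE 0.20 and adjusted p = 0.18 with the block), and it ran from -0.001 without GFP-TC 1 to 1.27 without GFP-TC 3.

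**Figure D2:**
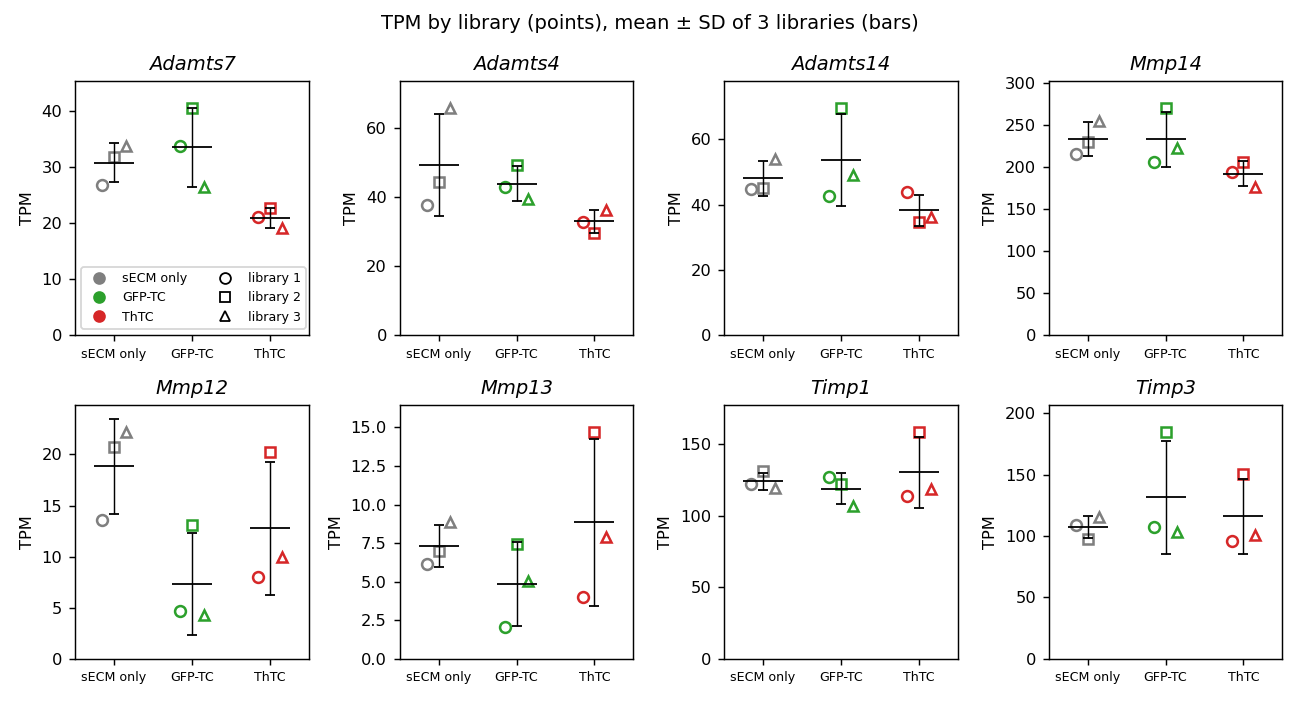
TPM of 8 members by group, with 1 symbol per library and bars for the mean ± SD of 3 libraries. Adamts7, Adamts4 and Mmp14 lie lower in all 3 ThTC libraries than in the other 6 (Adamts4 alone of these also after median-of-ratios scaling). Mmp12 lies lower in all 3 GFP-TC libraries than in sECM only. Mmp13 and Timp1 are highest in ThTC 2, while Timp3 is high in both GFP-TC 2 and ThTC 2.

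By unadjusted p under 0.05, 6 of the 35 tested members were lower in ThTC (17.1%) against 12.9% of all genes tested, and 0 were higher against 2.03%. Without overlap between the groups, 7 members were lower (20%) against 16.9% of all genes, and 0 were higher against 2.2%. These 7 were Adamts4, Adamts7, Adamts9, Adamts10, Adamts12, Mmp14 and Mmp16. After median-of-ratios scaling 3 of them, Adamts4, Adamts10 and Mmp16, did not overlap, and 6.45% of all genes were lower in this way. For Mmp16 the margin was minimal, with ThTC 2 at 8.302 and GFP-TC 3 at 8.303 TPM. The median log2 fold change was -0.20 over the members and -0.10 over all genes, so much of the shift was common to the table. Median-of-ratios scaling moved the median of all genes to 0.02 and that of the members to -0.07, and 2 members, Adamts7 and Adamts10, kept p under 0.05 with it. The Adamts median was then -0.27 with 9 of 11 lower, and with quantile scaling -0.31 with 10 of 11 lower, while the medians of Timp and ADAMTS-like genes turned positive under median-of-ratios scaling (0.12 and 0.02). GFP-TC 2 held the highest value of 16 members (27.0% of all genes had theirs there). Without GFP-TC 2, 1 member had p under 0.05 and was lower, and the members' median was -0.05. Without ThTC 2, 2 members did. Over all genes, p was under 0.05 in either direction for 1289 with median-of-ratios scaling, 768 without GFP-TC 2 and 776 without ThTC 2.

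**Figure D3:**
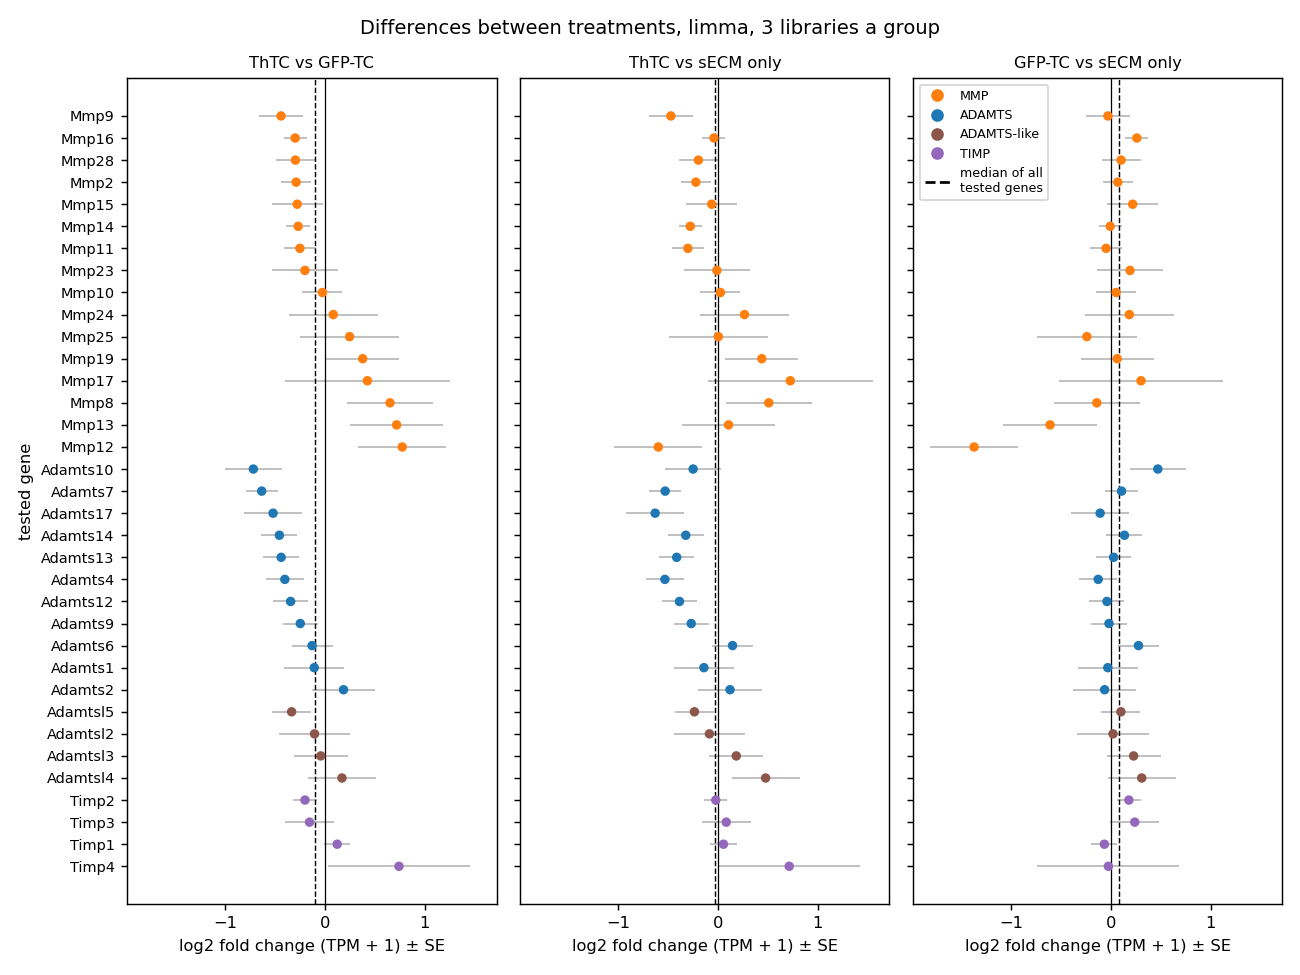
Log2 fold change of TPM + 1 with its standard error for the 35 tested genes in the 3 comparisons, coloured by family, with a dashed line at the median of all tested genes. Against GFP-TC, 10 of 11 Adamts genes lie to the left of 0 (9 of 11 after median-of-ratios scaling), and against sECM only 9 of 11 do, with no gene called in any panel.

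Against sECM only, ThTC differed by both the cells and what they secrete, and the same ThTC libraries entered as in the contrast with GFP-TC. Adamts genes were again lower in ThTC in 9 of 11 cases, beside 55.6% of all genes (median log2 fold change -0.32, and between -0.41 and -0.29 under both scalings). The Mmp median was -0.03, or 0.005 after median-of-ratios scaling, and the Timp median 0.07. The lowest limma p-values were those of Adamts7 (log2 fold change -0.53, SE 0.16), Adamts4 (-0.53, SE 0.19), Mmp14 (-0.28, SE 0.12), Adamts13 (-0.41, SE 0.18) and Adamts12 (-0.39, SE 0.18), all with limma adjusted p = 0.69. No member and no other gene (0%) passed the adjusted threshold.

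Without overlap, 10 of 35 members were lower in ThTC than in sECM only (28.6%) against 12.1% of all genes, and 0 were higher against 5.03%. These were Adamts4, Adamts7, Adamts9, Adamts12, Adamts13, Adamts14, Adamts17, Mmp9, Mmp11 and Mmp14. Mmp9, the larger gelatinase, stood at 15.65, 16.3 and 24.1 TPM in sECM only and at 14.3, 10.98 and 13.8 TPM in ThTC. Adamts17 stood at 3.76, 5.45 and 6.43 TPM in sECM only and at 3.49, 2.22 and 3.25 TPM in ThTC. In both genes ThTC 1 was the ThTC library nearest to sECM only. After median-of-ratios scaling 7 of the 10 still did not overlap, all but Adamts14, Mmp11 and Mmp14, against 7.77% of all genes lower.

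By unadjusted limma p under 0.05, 4 members were lower (11.4%) against 5.36% of all genes, and 0 were higher against 1.54%. Without sECM only 3, 1 member was lower at that level, beside 391 of all genes in either direction. The median over the members was -0.06, beside -0.03 over all genes, and it was 0.08 without ThTC 1. Mmp12 was lower in ThTC by 0.60 (SE 0.44) and Timp4 higher by 0.71 (SE 0.71), each with overlap. The value for Timp4 was 0.195 without ThTC 3 and 1.225 without ThTC 1.

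Mean levels of marker genes of other cells also differed between ThTC and the other groups, with no gene called at the adjusted threshold. Of 9 fibroblast markers, 7 were lower in ThTC than in GFP-TC (median -0.44, 3 at limma p under 0.05), and 7 were lower than in sECM only (median -0.26, 3 at p under 0.05). Of all genes, 66.2% were lower than in GFP-TC (12.9% at limma p under 0.05) and 55.6% lower than in sECM only (5.36%). After median-of-ratios scaling 7 fibroblast markers were lower than in GFP-TC, 1 of them at limma p under 0.05 (median -0.30). Their summed TPM was 1245, 1449 and 1011 in ThTC, against 1602 to 1989 in GFP-TC 1 and GFP-TC 2, 1422 in GFP-TC 3 and 1366 to 1711 in sECM only. Col3a1 alone gave 1069, 1136 and 875 TPM of the ThTC sums. With equal weight to each marker, the mean centred log2 level was -0.46, 0.45 and -0.69 in ThTC, and ThTC 2 was the highest library. Col1a1, Col1a2 and Dcn (78.6, 44.15 and 48.4 TPM) were highest in ThTC 2. All 11 monocyte and macrophage markers had higher means in ThTC than in GFP-TC (median 0.60), but without GFP-TC 1 the median was 0.21 and 2 of 11 were lower, and 1 of 11 was lower without ThTC 1. Of 9 tested pericyte and smooth muscle markers 5 were lower than in GFP-TC (median -0.12). Among them Pdgfrb was at 32.9 ± 1.54 TPM in ThTC, 56.3 ± 7.67 in GFP-TC and 54.4 ± 8.16 in sECM only, and Notch3 at 5.11 ± 0.093, 9.30 ± 0.738 and 9.64 ± 0.365 TPM (SD, n = 3 each). Their ThTC libraries lay below all others, like those of Adamts7, whereas Acta2 and Tagln, of smooth muscle, had higher ThTC means. All 6 tested T cell markers were higher than in GFP-TC (median 1.05), with sums of 6.08, 56.7 and 62.8 TPM in GFP-TC and 75.6, 73.7 and 80.2 TPM in ThTC. All 5 red blood cell markers were lower (median -1.15), with sums of 998, 1206 and 186 TPM in GFP-TC and 147, 524 and 335 TPM in ThTC. The part of these cells in the Adamts and Mmp14 values was not tested.

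GFP-TC and sECM only differed by the control cells. The main difference among members was in Mmp12, at 7.36 ± 4.99 TPM in GFP-TC and 18.8 ± 4.60 TPM in sECM only (SD, n = 3 each). The log2 fold change was -1.37 (SE 0.44, limma adjusted p = 0.997), with no overlap, before or after median-of-ratios scaling. Over 20 alternatives it lay between -1.83 and -1.12. Arg1, a gene of alternatively activated macrophages, was likewise lowest in GFP-TC 1 (12.7 TPM) and GFP-TC 3 (21.3 TPM), against 60.9 to 198 TPM in the other 7 libraries. It was chosen after its values were seen, and the 11 monocyte and macrophage markers as a list were split, 5 higher and 6 lower in GFP-TC (median -0.07), with Csf1r, Itgam and Fcgr1 higher in GFP-TC 3 than in any sECM only library. The part of macrophages in the Mmp12 values was not tested.

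Mmp15 and Mmp16 were higher in every GFP-TC library than in every sECM only library, by log2 0.22 (SE 0.26) and 0.26 (SE 0.12), with limma adjusted p = 0.997 for each, but not after median-of-ratios scaling. Those 2 were 5.71% of tested members, against 3.15% of all genes, and the 1 lower member, Mmp12, was 2.86% against 1.08%. At unadjusted p under 0.05, 1 member was lower (2.86%) against 0.434% of all genes, and 0 were higher against 0.499%. No gene passed the adjusted threshold (0%). The next members by p were Adamts10 (0.47, SE 0.28), Timp2 (0.18, SE 0.12) and Adamts6 (0.28, SE 0.20). Members were lower in 42.9% of cases, beside 28.2% of all genes, and in 57.1% after median-of-ratios scaling. The members as a set thus had no stable direction here.

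Several members differed more between libraries of 1 group than between groups. Mmp17, a membrane-type enzyme held by a lipid anchor and known from brain, stood at 12.2, 8.08 and 8.30 TPM in sECM only, at 3.32, 11.1 and 38.8 in GFP-TC and at 8.06, 10.85 and 45.7 in ThTC. GFP-TC 3 and ThTC 3 were more than 3 times as high as the next library. Timp4, the inhibitor best known from brain and heart, stood at 10.8, 5.62 and 4.50 TPM in sECM only, at 1.65, 8.86 and 14.5 in GFP-TC and at 5.07, 11.3 and 24.3 in ThTC. The highest library was 14.7 times the lowest for Timp4, 13.9 times for Mmp8, 13.8 times for Mmp17, 8.18 times for Mmp25, 7.14 times for Mmp13, 6.8 times for Adamts2 and 5.15 times for Mmp12. Mmp24, the membrane-type enzyme enriched in neurons, stood at 6.44, 5.12 and 4.81 TPM in sECM only, at 3.01, 6.79 and 11.4 in GFP-TC and at 4.31, 5.54 and 12.2 in ThTC, in nearly the same order as Mmp17.

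These genes followed the neuron marker score, the mean of the log2 levels of 15 neuron markers after centring each gene, which ran from -1.63 in GFP-TC 1 to 1.92 in ThTC 3. Scores made in the same way from oligodendrocyte and astrocyte markers ran much alike. They were -1.53 and -1.42 in GFP-TC 1, 1.74 and 1.16 in GFP-TC 3, and 2.04 and 1.37 in ThTC 3. Neurons and glia thus cannot be told apart by the neuron score here. In a limma fit with group terms, 9 of 35 members (25.7%) had a positive slope at adjusted p under 0.05, against 25.4% of all genes tested, and 0 had a negative slope against 4.17%, so the share among the members was that of the table. The slopes on the log2 scale per unit of score were 0.90 for Mmp17 (SE 0.06, adjusted p = 2e-06), 0.48 for Mmp24 (SE 0.05, adjusted p = 3.5e-05), 0.74 for Timp4 (SE 0.09, adjusted p = 9.3e-05), 0.47 for Mmp25 (adjusted p = 0.0034) and 0.33 for Adamtsl2 (adjusted p = 0.0045). Adamtsl4, Adamts2, Timp2 and Mmp15 followed with 0.31, 0.27, 0.10 and 0.20. The negative slopes with the smallest p, those of Mmp11, Adamts7, Adamts17, Adamts13 and Timp1, were not called. Median-of-ratios scaling gave 7 positive calls and 3 negative ones (Adamts7, Adamts13 and Mmp11), and quantile scaling 3 and 9. Of all genes, 38.3% and 43.4% were called in either direction with these scalings in turn. Only Mmp17, Mmp24 and Timp4 were called under all 18 alternatives.

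Over the 9 libraries Pearson's r with the score was 0.98 for Mmp17 (exact permutation p = 5.5e-06, adjusted over 35 relations 0.00014) and Spearman's rho 0.98 (exact p = 5e-05, adjusted 0.00087). For Mmp24 r was 0.99 and rho 0.98, with exact p = 8.3e-06 and 5e-05 (adjusted 0.00014 and 0.00087). For Timp4 r was 0.92 (exact permutation p = 0.00015, adjusted 0.0017) and rho 0.88 (exact p = 0.0031, adjusted 0.018). GFP-TC 3 and ThTC 3 stood apart in score, and over the other 7 libraries r was 0.914, 0.969 and 0.895 in turn. Mmp15 had r = 0.69 over 9 libraries (exact permutation p = 0.037, adjusted 0.15) and 0 without those 2, so that its relation rested on them. Mmp14 had r = -0.18 and rho 0.02 (exact p = 0.65 and 0.98, adjusted 0.86 and 0.98), but r = 0.545 without those 2 libraries. The neuron list shares no gene with the members.

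**Figure D4:**
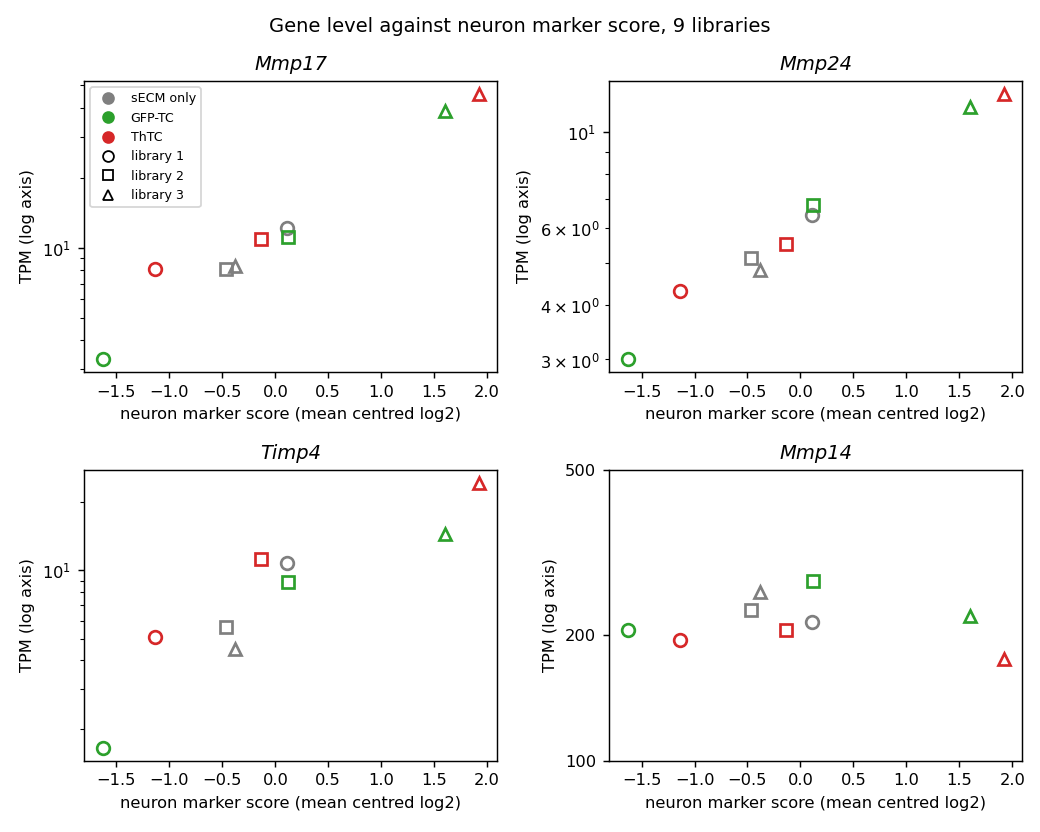
TPM (log axis) of Mmp17, Mmp24, Timp4 and Mmp14 against the neuron marker score of the same library, with 1 symbol per library. Mmp17, Mmp24 and Timp4 climb with the score from GFP-TC 1 at the left to ThTC 3 at the right. Mmp14 does not over the 9 libraries (r = -0.18, but 0.545 without GFP-TC 3 and ThTC 3).

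The genes whose log2 level was most like that of Mmp17 over the 9 libraries were Gpr27, Paqr4, Actr3b, Ppp1r3c and Raver2 (r = 0.99 each), and those most like Timp4 were Mmd2 (r = 0.99), Thy1, Lrtm2, Pdlim4 and Serpine2 (r = 0.98 each). Thy1 is on the neuron list. Gpr27, a receptor of brain, was lowest in GFP-TC 1, at 0.39 TPM, and highest in ThTC 3, at 13.1 TPM. Among the members themselves, Mmp17 and Mmp24 gave r = 0.985, Adamts13 and Adamts17 r = 0.94, Adamts9 and Mmp14 r = 0.92, and Mmp14 and Mmp2 r = 0.86.

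The substrates of these enzymes were given by 2 lists. Of 12 collagen and elastin genes, 9 were lower in ThTC than in GFP-TC (median -0.42), 8 of them at limma p under 0.05 and 0 at the adjusted threshold. The 8 became 1 after median-of-ratios scaling (median -0.29), 6 after quantile scaling, and 2 without GFP-TC 2 or without ThTC 3. Col6a1, a chain of microfibrillar collagen, was at 273 ± 33.8 TPM in ThTC and 403 ± 52.0 in GFP-TC, Col18a1, of basement membranes, at 369 ± 37.5 and 519 ± 71.9, and Col4a2 at 160.4 ± 7.33 and 216 ± 43.1 (SD, n = 3 each; limma adjusted p = 0.32 for each). Against sECM only 9 of 12 were lower, 5 at p under 0.05, and Col18a1 had the smallest p (log2 fold change -0.65, SE 0.13, limma adjusted p = 0.69), ahead of Col6a1 (-0.60) and Col6a3 (-0.93). In ThTC 2, Col1a1 reached 78.6 TPM and Eln 17.2 TPM, against at most 44.7 and 5.39 TPM in the other libraries. Of 19 tested proteoglycan and glycoprotein genes 15 were lower in ThTC than in GFP-TC (median -0.23, beside -0.10 over all genes, of which 66.2% were lower), 1 of them, Nid2, at p under 0.05, with Hspg2 and Fbn2 next, and 12 were lower than in sECM only, led by Hspg2, Vcan and Nid1.

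Genes that activate or restrain matrix proteases were lower in ThTC than in GFP-TC in 14 of 19 cases, a share near that of all genes (median -0.15, and -0.02 with 10 lower after median-of-ratios scaling). Bmp1, the procollagen C-proteinase, was at 71.8 ± 3.63 TPM in ThTC and 97.0 ± 19.5 in GFP-TC, Furin, which activates proforms of MMPs and ADAMTS enzymes, at 146 ± 5.72 and 186 ± 26.5, and Fbln1, a cofactor of ADAMTS1, at 84.9 ± 12.8 and 112 ± 15.6 (SD, n = 3 each; limma adjusted p = 0.32 for each). Against sECM only, Plat, the tissue plasminogen activator, had the smallest p (212 ± 10.3 against 277 ± 40.8 TPM, log2 fold change -0.37, limma adjusted p = 0.69), followed by Fbln1 and Thbs2. Of 7 ADAM sheddases, the membrane-bound relatives, 5 were lower in ThTC than in GFP-TC (median -0.03, but 0 of 7 lower with a median of 0.10 after median-of-ratios scaling) and 0 had p under 0.05. Their smallest p-values were those of Adam15, Adam8 and Adam17, and of Adam12, Adam15 and Adam8 against sECM only. Between GFP-TC and sECM only, 0 genes of these 4 lists had p under 0.05, and the smallest among sheddases, proteoglycans and collagens were those of Adam12, Adam10 and Adam19, of Tnc, Fn1 and Hapln4, and of Col18a1, Col6a3 and Col5a2.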

How the data were processed

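Total RNA of 9 tissue libraries was extracted with an RNeasy kit and sequenced on the DNBseq platform to 4.47 Gb of bases per sample, per the labels' protocols. The authors deposited 1 table of TPM per library, as the file headers name the unit, a length-corrected share of all transcripts. The submitters' processing notes name HISAT and the builds GRCm38.p6 and mm10. The quantifier and annotation are not given in the sources used here. Because TPM has the same total in every library, depth and counting error are unknown, and higher levels of some genes lower the rest.

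Values were taken as log2(TPM + 1), which understates changes of low genes, for the 13829 genes that reached 1 TPM in 3 or more libraries. One limma fit (version 3.58.1, R 4.3.3, intensity trend) over all 9 libraries gave the 3 comparisons, with Benjamini-Hochberg adjustment over all genes and a threshold of 0.05. A second fit added the neuron marker score to the group terms. The code was tested on simulated data. Correlations used exact permutation over 9 libraries in scipy 1.17.1. Positions and promoters came from RefSeq for GRCm38.p6, the build in the notes. The members and lists were chosen with earlier results of these data known.

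Text names were set by rule: all Timp genes, the 8 Mmp and 8 Adamts or Adamtsl genes with the highest mean TPM, per comparison the 5 members with the smallest p and all without overlap, the 5 with the widest range, those under the filter, for the slope the 5 with the smallest p in each direction, and 3 genes per list and comparison, except 1 list in 1 comparison that is not reported here. Alternatives were other pseudocounts, filters, scalings, left-out libraries, a neuron score covariate and a replicate block. Libraries numbered 1 in GFP-TC and ThTC deviated together (correlation 0.743), as did those numbered 3 (0.874). Those numbered 2 did so only weakly (0.124), and ThTC 2 went more with GFP-TC 1 (0.382). The labels do not say what a number stands for, and libraries of the same number were treated as pairs in the block. Between sECM only and the other groups, correlations of libraries with the same number ran from -0.548 to 0.282, a range that holds the 0.124.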

Additional observations from a re-analysis of the deposited data

How the results depend on the processing

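In the 3 treatment comparisons no member was called by limma at adjusted p under 0.05 in any of 20 alternatives each, including one chosen after seeing the data, the omission of GFP-TC 3 and ThTC 3 together. The replicate block over the 6 libraries of ThTC and GFP-TC also called 0 members, with 10 of 13684 genes called and a smallest adjusted p among members of 0.116, against 0.747 at the other end of the range (without GFP-TC 2). The pairing changed no call of a member in these comparisons. Members lower in ThTC than in GFP-TC at unadjusted p under 0.05 numbered 6 in the fit reported, 8 with that block, 2 with either scaling, 1 without GFP-TC 2, 2 without ThTC 2, and 3 with the block over 9 libraries, with only those 2 groups fitted, or without sECM only 2, ThTC 1 or ThTC 3. Members higher at that level numbered 0 in the fit reported, 3 with the block over 6 libraries (Mmp12, Mmp13 and Timp4) and 2 with the block over 9. Over all genes, 1784 were lower and 281 higher at that level in the fit reported. In both directions together they numbered 2398 with the block over 6 libraries, and 1289 and 1384 with median-of-ratios and quantile scaling. They numbered 768 without GFP-TC 2, 776 without ThTC 2, and between 1379 and 2122 in the fits that gave 3 lower members. Against sECM only the 4 became 1 without sECM only 3, 2 without sECM only 2, ThTC 1 or ThTC 2, 8 with only those 2 groups fitted and 7 with the neuron score as covariate. All genes at that level numbered 741 lower and 213 higher in the fit reported. In both directions together they numbered 391 without sECM only 3, and 525, 1590 and 331 without sECM only 2, ThTC 1 and ThTC 2. With only those 2 groups fitted they numbered 1381, and with the covariate 1588. The 9 members called for a slope on the neuron score became 14 with no filter, 4 at a mean TPM of 5 or more and 4 with the replicate block, and between 5 (without GFP-TC 1, or without GFP-TC 3) and 10 (without GFP-TC 2) with 1 library left out. Without GFP-TC 3 and ThTC 3 together they became 6, among them Mmp13 and Timp3, which were not called in the fit reported. Of all genes, 25.4% had a positive and 4.17% a negative slope called in the fit reported. In both directions together, 25.1% were called with no filter, 24.9% at a mean TPM of 5 or more and 12.8% with the block. The share was 19.8% without GFP-TC 1, 18.9% without GFP-TC 3 and 30.7% without GFP-TC 2. It was 9.47% without GFP-TC 3 and ThTC 3 together. Fewer members were tested at a mean TPM of 5 or more (25) and more with no filter (49), and otherwise the cause was not tested. With 3 libraries a group and unknown depth, differences of the size seen here were not resolved from the spread between libraries.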
